A study of Homo sapiens with 6 samples.

Results

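Mitotic genes were measured in K562, a human line of erythroleukaemia cells that carries the BCR-ABL1 fusion. They are 31 genes whose products enter, drive, time and end mitosis, chosen by name, and each was read from the probe set that carries its symbol. All 31 were measured among 21448 probe sets, 17709 of which had a single gene symbol, and 0 of the 31 had more than 1 probe set. Total RNA was hybridised on 6 single-colour arrays. Per the labels, 3 arrays hold K562 cells with a control vector and 3 hold K562 cells with a miR-543 vector, listed as overexpressing this microRNA. The labels give bone marrow as the tissue of origin and name no promoter, selection, clone or time for the vectors. They do not say that replicates were separate cultures, so the spread between arrays may be technical. The series design asks which mRNAs differ when miR-543 is overexpressed.

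Mitotic genes are transcribed late in the cell cycle. In early phases the DREAM complex represses them, and later B-MYB and FOXM1 activate them through a promoter element called the CHR (cell cycle genes homology region) and neighbouring CCAAT boxes. Their products then act in order: cyclin B with CDK1 starts mitosis, kinetochores and motors place chromosomes on the spindle, the spindle checkpoint holds the anaphase-promoting complex (APC/C) back, and the APC/C ends mitosis by marking securin and cyclins for destruction. Dividing leukaemia cells such as K562 carry high levels of these mRNAs.

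The microRNA is shown first because it is the agent that differed between the groups. Its mature form lies on the plus strand of GRCh38.p14 at chr14:101032033-101032054 (RefSeq). The capitals mark the seed, bases 2 to 8, which pairs with target mRNAs.
hsa-miR-543: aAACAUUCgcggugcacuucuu
This seed belonged to 1 mature human microRNA in the RefSeq table, miR-543 itself. The array table held 0 probe sets named for MIR543, so overexpression could not be checked on these arrays. Sites for the seed in the mitotic mRNAs were not analysed here.

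The promoters are shown because many of the mitotic genes, though not all, share these elements there. RefSeq promoter windows of 300 bases (250 before the start and 50 after, GRCh38.p14) were matched for 26 of the 31 genes. The CHR was searched as TTTGAA or TTCGAA and the CCAAT box as CCAAT, each on both strands. A CHR was found for 18 of the 26 genes (69.2%), against 19.5% of the 27305 genes in the promoter table. A CCAAT box was found for 21 (80.8%, against 39.7%), and 15 had both (57.7%, against 7.85%). Other mitotic genes, from the pathway lists described further on, had a CHR in 56% of 116. A gene with several windows was counted once if any window held the motif. These matches describe letters in a window and not sites of binding. The 250 bases before the start are printed for 5 genes that hold both motifs, with the motifs in capitals.
CDK1, chr10:60778228-60778477, plus strand: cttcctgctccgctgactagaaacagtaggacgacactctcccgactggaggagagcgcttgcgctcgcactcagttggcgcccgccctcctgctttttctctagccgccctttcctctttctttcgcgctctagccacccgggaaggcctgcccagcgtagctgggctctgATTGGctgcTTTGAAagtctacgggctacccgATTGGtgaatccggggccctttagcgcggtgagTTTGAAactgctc
HMMR, chr5:163460382-163460631, plus strand: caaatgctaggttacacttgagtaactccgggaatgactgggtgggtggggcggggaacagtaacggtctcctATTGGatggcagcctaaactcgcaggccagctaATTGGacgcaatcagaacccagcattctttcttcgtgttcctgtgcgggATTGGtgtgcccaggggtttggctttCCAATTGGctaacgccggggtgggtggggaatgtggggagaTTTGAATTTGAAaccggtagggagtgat
CCNB2, chr15:59104896-59105145, plus strand: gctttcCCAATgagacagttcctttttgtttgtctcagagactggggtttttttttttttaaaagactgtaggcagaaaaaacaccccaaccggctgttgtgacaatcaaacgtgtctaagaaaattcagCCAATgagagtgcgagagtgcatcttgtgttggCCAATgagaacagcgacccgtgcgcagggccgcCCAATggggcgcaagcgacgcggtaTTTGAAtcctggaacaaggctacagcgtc
PLK1, chr16:23678639-23678888, plus strand: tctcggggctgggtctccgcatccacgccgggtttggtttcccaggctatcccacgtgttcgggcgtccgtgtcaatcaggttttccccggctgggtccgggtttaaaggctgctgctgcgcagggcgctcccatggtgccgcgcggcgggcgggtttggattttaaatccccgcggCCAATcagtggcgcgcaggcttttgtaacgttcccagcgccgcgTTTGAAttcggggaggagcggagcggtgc
MKI67, chr10:128126424-128126673, minus strand: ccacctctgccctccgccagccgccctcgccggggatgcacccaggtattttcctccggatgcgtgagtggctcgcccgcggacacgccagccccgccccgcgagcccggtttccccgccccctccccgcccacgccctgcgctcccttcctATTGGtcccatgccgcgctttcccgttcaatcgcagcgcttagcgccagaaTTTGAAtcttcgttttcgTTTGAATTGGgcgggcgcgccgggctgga
CDK1 held CHR letters at -69 and -13 from this start, counted at the first base of the match, and a second annotated start of CDK1 lies upstream. HMMR had a pair of adjoining CHR matches at -28 and -22, and its CCAAT boxes at -69 and -66 overlap. CCNB2 had CCAAT boxes at -244, -120, -87 and -54 ahead of a CHR at -29. PLK1 had a single box of each kind, at -73 and -29. In MKI67 the last letter of the CHR at -29 is the first of a CCAAT box.

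Distributions were alike on all arrays, with medians of 5.99 to 6.01 and upper quartiles of 9.61 to 9.66 in log2 units. Of 10 measured K562 markers 7 lay above the upper quartile on every array, among them GATA1 and the embryonic globin gene HBE1, and none lay below the median on every array. Of 7 lymphoid, 8 epithelial and 6 stromal markers, 3, 3 and 5 lay below the median on every array. Of the epithelial markers 4 lay above the upper quartile, among them EPCAM at 13.7 and 13.4 with the control and the miR-543 vector, and 0 of these 21 markers passed limma's test between the groups. The 10 K562 markers had 0 calls as well, with 9 changes above 0, a median of 0.32 and 4 at an unadjusted p under 0.05, KLF1 at 0.66 among them (limma adjusted p = 0.106). All 6 stromal markers had changes above 0 (median 0.21). The lymphoid marker CD3D lay above the upper quartile on every array, at 10.6 with the control and 11.2 with the miR-543 vector. Its change was 0.64 (limma adjusted p = 0.184). The part of these differences in the mitotic values was not tested.

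No mitotic gene was called as higher or lower with the miR-543 vector. Of the 31 genes 0 passed limma's test at an adjusted p under 0.05 over all probe sets, where 0.569% of all probe sets did, and the smallest adjusted p was 0.345, for UBE2C. At an unadjusted p under 0.05 limma gave 6 genes with a lower mean, CDK1, TTK, BUB1, HMMR, NUSAP1 and UBE2C (5.21% of all probe sets), and 0 with a higher mean (5.4%). Log2 changes, as miR-543 vector minus control vector, ran from -0.50 to 0.20 with a median of -0.02, and 19 genes lay below 0. Over all probe sets the median was 0.01 and 47.1% lay below 0. Each taken alone, the 95% intervals of all 31 changes stayed within a 2-fold difference in either direction, and those of 25 stayed within 1.5-fold. The lowest bound was 54.2% of the control level and the highest 145%. Fewer cells in mitosis and less mRNA per mitotic cell cannot be told apart in RNA from whole cultures.

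In 7 of the 31 genes the highest miR-543 array was lower than the lowest control array, and in 0 the reverse held, where 7.5% and 7.89% of all probe sets did so. The 7 were CDK1, BUB1, TTK, CENPF, NUF2, HMMR and UBE2C, with gaps between the groups of 0.03 to 0.11. Most of the mitotic genes have strong signals, 27 of 31 lying above the upper quartile on every array. Among the 4911 probe sets above that quartile, the share without overlap was 11.9% for lower and 9.14% for higher, and the share lower at an unadjusted p under 0.05 was 5.42%. Of those probe sets 53% lay below 0, with a median of -0.01, against 61.3% of the 31 genes with a median of -0.02. The count of 6 genes at an unadjusted p under 0.05 varied with the arrays used. Leaving out control replicate 1 gave 1 gene, control replicate 2 gave 2 and control replicate 3 gave 5, and leaving out miR-543 replicate 1 gave 3, replicate 2 gave 2 and replicate 3 gave 2. With fewer arrays the share of all probe sets lower at this threshold ran from 3.73% (without control replicate 1) to 6.06% (without control replicate 3), and 1 or 2 of the 31 genes (3.23% or 6.45%) is near such shares. Without control replicate 3 the 5 genes were CDK1, BUB1, TTK, HMMR and NUSAP1, or 16.1%. Without miR-543 replicate 1 the 3 genes were CDK1, TTK and UBE2C, or 9.68% against 4.82% of all probe sets. After a further quantile normalization the count was 3 (9.68%, against 5.4% of all probe sets), with TTK, HMMR and UBE2C. It stayed at 6 with arrays shifted to equal medians, a replicate block, and a trend and robust variance model. In those fits 5.36%, 5.17% and 5.99% of all probe sets were lower. A filter on low signals, which removed UBE2C, left 5 of 30 genes (16.7%, against 7.8% of the probe sets kept).

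**Figure D1:**
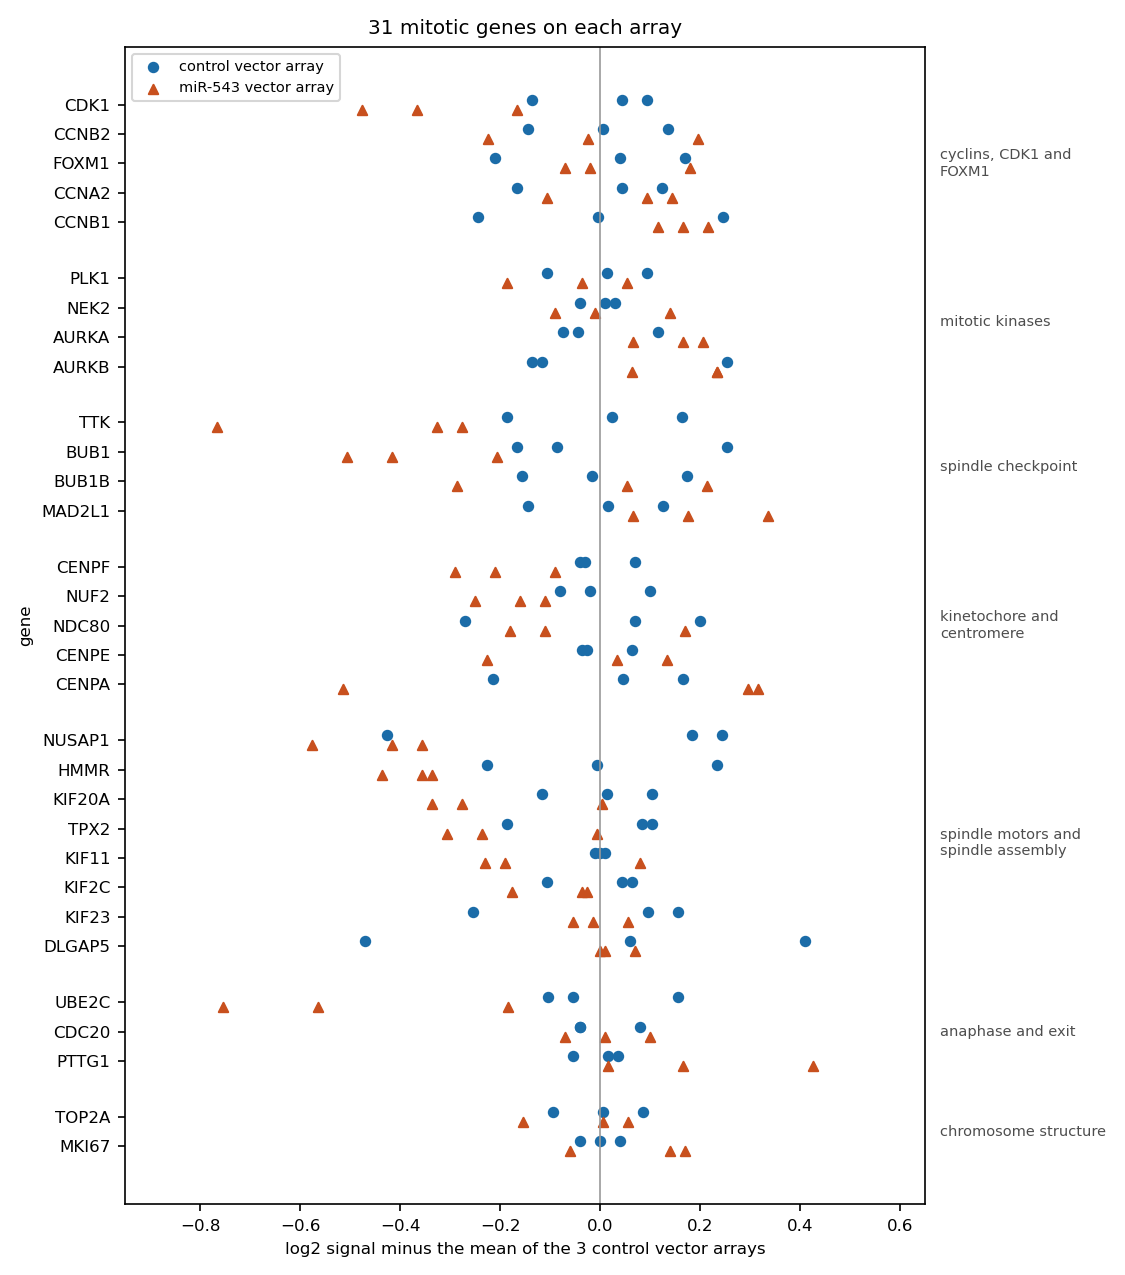
Log2 signal of each of the 31 mitotic genes on each array, minus the mean of that gene's 3 control vector arrays, by role (circles, control vector; triangles, miR-543 vector). The triangles lie to the left of all circles for 7 genes and to the right of all circles for 0.

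Cyclins, CDK1 and FOXM1 start the programme, and within this role CDK1 stood at one end and its cyclin partner CCNB1 at the other. CDK1, the kinase that drives entry into mitosis, gave 13.26, 13.21 and 13.03 on the control arrays and 13.00, 12.80 and 12.69 on the miR-543 arrays. The groups did not overlap, but the lowest control array lay only 0.03 above the highest miR-543 array. The log2 change was -0.34 (SE 0.15, 95% interval -0.66 to -0.01, limma adjusted p = 0.46), or 79.2% of the control level. CCNB1, which activates CDK1, gave 12.82, 12.57 and 12.33 with the control vector and 12.69, 12.74 and 12.79 with the miR-543 vector. Its miR-543 arrays were close together and lay inside the span of the control arrays, with a change of 0.17 (interval -0.18 to 0.51).

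CCNB2, the second B-type cyclin, averaged 12.9 in both groups (SD 0.14 and 0.21, n = 3) and changed by -0.02. CCNA2, the cyclin of S phase and early mitosis, had control values of 14.13, 14.05 and 13.84 and miR-543 values of 14.15, 14.10 and 13.90. The groups overlapped almost fully, with a change of 0.04 (interval -0.28 to 0.37). FOXM1, the transcription factor that activates late cell cycle genes, averaged 9.57 ± 0.19 and 9.60 ± 0.13 (SD, n = 3), a change of 0.03 (interval -0.31 to 0.37). Of these 5 genes 2 lay below 0, and the median was 0.03.

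The mitotic kinases lay close to the control or slightly above it. AURKA, which matures centrosomes and the spindle, gave 12.40, 12.56 and 12.37 with the control vector and 12.51, 12.65 and 12.61 with the miR-543 vector. AURKB, the kinase of the chromosomal passenger complex that corrects attachments, gave 10.39, 10.37 and 10.76 against 10.74, 10.74 and 10.57. In both, a single control array kept the groups overlapping, replicate 2 for AURKA and replicate 3 for AURKB, and the changes were 0.15 and 0.18 (limma adjusted p = 0.769 and 0.752). PLK1, which acts from entry to cytokinesis, averaged 14.3 in both groups (SD 0.10 and 0.12, n = 3) with a change of -0.06. NEK2, which separates centrosomes, averaged 11.9 in both (SD 0.036 and 0.12, n = 3) with a change of 0.01. The median of the 4 kinases was 0.08, and 1 of them lay below 0.

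Among the 4 spindle checkpoint genes TTK and BUB1 had groups that did not overlap. TTK (MPS1), the kinase that starts checkpoint signalling at unattached kinetochores, gave 12.64, 12.78 and 12.43 on the control arrays and 12.29, 11.85 and 12.34 on the miR-543 arrays. All miR-543 arrays were lower, replicate 2 by the most, and the log2 change was -0.46 (SE 0.17, interval -0.84 to -0.07, limma adjusted p = 0.393). BUB1, a kinase that recruits the other checkpoint proteins, gave 12.49, 12.15 and 12.07 against 11.82, 12.03 and 11.73. The closest arrays of the groups were 0.04 apart, and the change was -0.38 (SE 0.16, interval -0.73 to -0.02, limma adjusted p = 0.449).

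The remaining checkpoint genes encode parts of the complex that inhibits the APC/C, and their groups overlapped. BUB1B (BUBR1) gave 11.37, 11.51 and 11.70 against 11.58, 11.74 and 11.24, a change of -0.01 with miR-543 replicate 3 lowest of the 6 arrays. MAD2L1 (MAD2) gave 10.41, 10.30 and 10.14 against 10.62, 10.35 and 10.46. Its groups overlapped through 1 control array, and the change was 0.19 (interval -0.13 to 0.52). Changes in this role therefore ran from -0.46 to 0.19, with a median of -0.19.

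Kinetochore and centromere genes differed by small amounts. CENPF, a large protein of the outer kinetochore, gave 12.70, 12.80 and 12.69 against 12.64, 12.44 and 12.52, and NUF2, a subunit of the NDC80 complex that binds microtubules, gave 11.24, 11.36 and 11.18 against 11.15, 11.10 and 11.01. In both genes the groups did not overlap, by 0.05 and 0.03, with changes of -0.20 and -0.17 (limma adjusted p = 0.673 and 0.712). NDC80, the partner of NUF2 in the same complex, gave 13.39, 13.52 and 13.05 against 13.49, 13.21 and 13.14, a change of -0.04 with overlapping groups.

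CENPE, a kinesin that carries chromosomes to the spindle equator, averaged 10.2 in both groups (SD 0.055 and 0.19, n = 3) with a change of -0.02. CENPA, the histone variant that marks centromeres, gave 9.99, 9.73 and 10.11 against 10.24, 10.26 and 9.43. The miR-543 arrays of CENPA split widely, 2 above all controls and replicate 3 below them, and its SD of 0.47 in that group was the largest of the 31 genes in either group. Its change was 0.03 (interval -0.47 to 0.53). Of the 5 genes of this role 4 lay below 0, with a median of -0.04.

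Spindle motors and assembly factors had changes below 0 in 7 of 8 genes, with a median of -0.15, and 0 passed the test. HMMR, which organises spindle poles, gave 12.16, 11.92 and 11.70 with the control vector and 11.57, 11.49 and 11.59 with the miR-543 vector. The miR-543 arrays lay close together (SD 0.053), all below the lowest control, and the change was -0.38 (SE 0.15, interval -0.72 to -0.04, limma adjusted p = 0.425). NUSAP1, which bundles spindle microtubules, gave 13.98, 13.92 and 13.31 against 13.32, 13.16 and 13.38. Here control replicate 3 lay among the miR-543 arrays, so the groups overlapped, and the change was -0.45 (SE 0.19, interval -0.87 to -0.03, limma adjusted p = 0.44).

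TPX2, which activates AURKA on the spindle, gave 12.12, 11.85 and 12.14 against 11.73, 12.03 and 11.80, a change of -0.18. KIF20A, a kinesin of cytokinesis, gave 9.53, 9.62 and 9.40 against 9.52, 9.24 and 9.18, a change of -0.20. KIF11 (Eg5), the motor that pushes spindle poles apart, gave 11.35, 11.34 and 11.36 against 11.43, 11.12 and 11.16. Its control arrays were nearly equal (SD 0.01) while 1 miR-543 array lay above them and the others below, for a change of -0.11.

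KIF2C (MCAK), which removes tubulin from microtubule ends, and KIF23, a motor of the central spindle, had changes of -0.08 and -0.003, and both overlapped. DLGAP5 (HURP), which stabilises microtubules near chromosomes, gave 11.95, 12.30 and 11.42 against 11.96, 11.89 and 11.90. Its control arrays spread over 0.88 and its miR-543 arrays over 0.07, and the change was 0.03 (interval -0.43 to 0.48). Control replicate 3 was the lowest control array in 5 of the 8 genes of this role, these 2 among them: DLGAP5 and NUSAP1. Leaving it out lowers the changes of those 5 by construction. The change of DLGAP5 was then -0.21 and that of NUSAP1 -0.66, and all 8 genes lay below 0. Without any other array 6 or 7 of the 8 lay below 0, and after a further quantile normalization 6 did.

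The 3 genes of anaphase and exit had 1 change below 0 and 2 above. UBE2C, the ubiquitin-conjugating enzyme that starts chains for the APC/C, gave 5.10, 5.15 and 5.36 with the control vector and 4.64, 5.02 and 4.45 with the miR-543 vector. The groups did not overlap, and the change was -0.50 (SE 0.17, interval -0.88 to -0.12, limma adjusted p = 0.345), or 70.7% of the control level. UBE2C was the 1 gene of the 31 that lay below the median signal on every array, and whether its probe set rose above background was not tested, so the size of this difference is uncertain. CDC20, the activator of the APC/C that the checkpoint holds back, gave 12.71, 12.71 and 12.83 against 12.85, 12.68 and 12.76, a change of 0.01 (interval -0.28 to 0.31). PTTG1 (securin), which keeps separase inactive until anaphase, gave 11.91, 11.89 and 11.82 against 12.04, 11.89 and 12.30. Replicate 3 of the miR-543 vector was the highest array, another equalled a control array, and the change was 0.20 (interval -0.13 to 0.53). PTTG1 has near-identical copies elsewhere in the genome that its probes may also read.

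The chromosome structure genes, often used as marks of proliferating cells, gave tight values. MKI67 (Ki-67), which coats mitotic chromosomes, gave 12.53, 12.57 and 12.61 with the control vector and 12.51, 12.71 and 12.74 with the miR-543 vector. The change was 0.08 (interval -0.22 to 0.39), and 1 miR-543 array lay below all controls. TOP2A, the topoisomerase that untangles sister chromatids, gave 13.86, 14.04 and 13.96 against 13.80, 13.96 and 14.01, a change of -0.03 (interval -0.34 to 0.28). For both genes the interval leaves out differences of 1.5-fold.

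**Figure D2:**
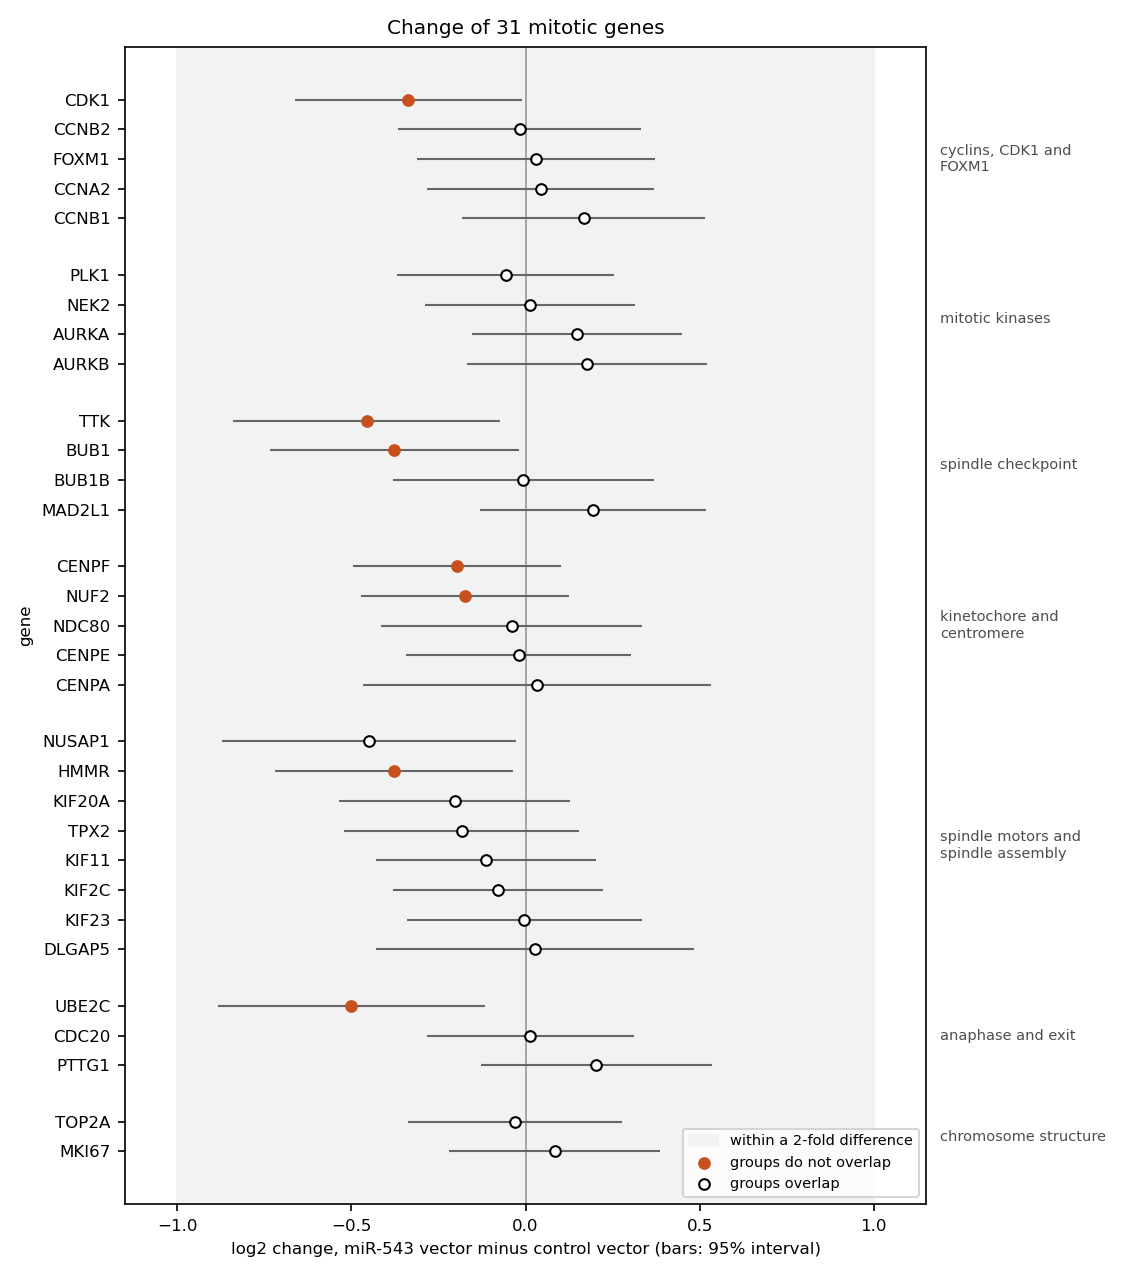
Log2 change of each mitotic gene, miR-543 vector minus control vector, with its 95% interval from limma over 3 arrays a group, by role. Every interval lies inside the grey band of a 2-fold difference, and filled points mark the 7 genes whose groups did not overlap.

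Among the control arrays 1 was low for most of these genes. Control replicate 3 was the lowest of the 3 control arrays in 19 of the 31 genes (61.3%), where it was lowest in 35.4% of all probe sets and in 42.5% of those above the upper quartile. Control replicates 1 and 2 were lowest in 5 and 6 genes. In the miR-543 group replicates 1, 2 and 3 were lowest in 6, 13 and 12. MiR-543 replicate 3 was also the highest of its group in 12 genes. It was lowest in 35.1% of all probe sets and in 42% of those above the upper quartile, much as control replicate 3 was. The median over the 31 genes of the value minus the gene's control mean was 0.04, 0.02 and -0.07 on control replicates 1, 2 and 3 and -0.02, -0.05 and -0.18 on miR-543 replicates 1, 2 and 3. Control replicate 3 thus lay below 2 of the miR-543 arrays by this measure. Since it was picked here as the low control, leaving it out lowers the changes by construction. The median change of the set was then -0.075 with 21 genes below 0, and 0 genes were called by limma, with 5 at an unadjusted p under 0.05. In 10 genes the miR-543 arrays then lay below the remaining controls and in 1 above (14.5% and 14.4% of all probe sets). Leaving out any other array gave 7 to 9 genes below and 1 or 2 above. In those fits 10.7% to 12.2% of all probe sets lay below and 11.5% to 13.7% above. What set control replicate 3 apart was not tested.

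**Figure D3:**
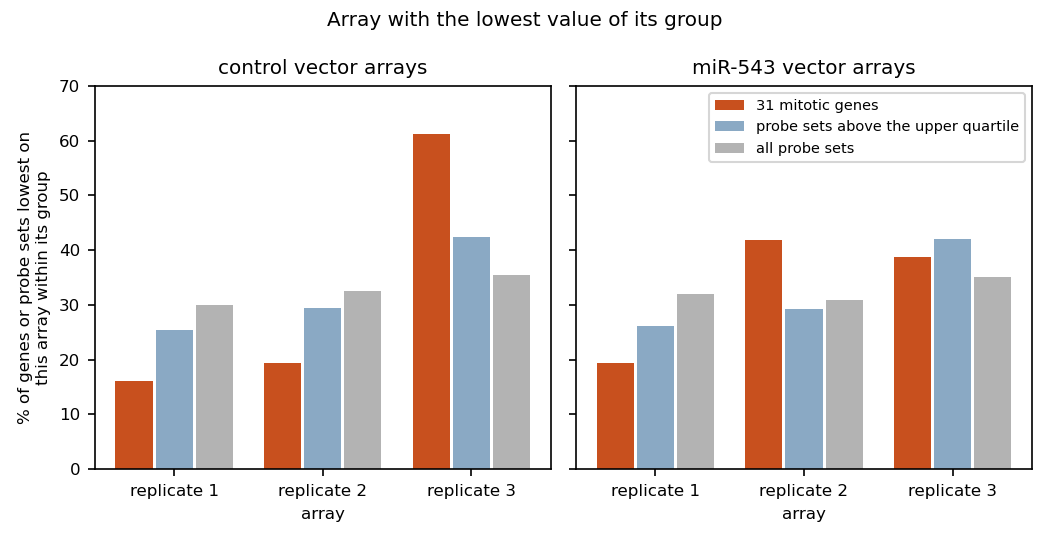
Share of genes or probe sets, in percent, for which each array had the lowest value of its group, for the 31 mitotic genes, for probe sets above the upper quartile and for all probe sets. Control replicate 3 was lowest for 61.3% of the mitotic genes and 35.4% of all probe sets.

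Changes of genes with and without a CHR match in the promoter window overlapped. The 18 genes with a match had a median change of -0.04 (range -0.45 to 0.19) and 13 lay below 0. The 8 genes without TTTGAA or TTCGAA in their window had a median of 0.03 (range -0.20 to 0.20) and 3 lay below 0. Other spellings of a CHR were not searched, so these 8 may still hold one. All 4 genes that had a window and a change below -0.3, CDK1, BUB1, HMMR and NUSAP1, held a CHR, and TTK and UBE2C were not matched to a window. These 4 were picked by their changes, and 69.2% of the 26 matched genes held a CHR. The only CHR letters of BUB1 and NUSAP1 lay after the start, at 2 and 14. Of the genes printed above, CDK1 and HMMR had changes of -0.34 and -0.38, while CCNB2, PLK1 and MKI67, with both motifs as well, had changes of -0.02, -0.06 and 0.08. No test was made of these differences.

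Other genes of mitosis were read from 7 lists of 139 genes, 133 of them measured. Of the 133 genes 0 passed limma at an adjusted p under 0.05, and 6 with higher and 8 with lower means had an unadjusted p under 0.05 (4.51% and 6.02%, near the 5.4% and 5.21% of all probe sets). Their median change was -0.05, with 85 below 0 (63.9%, against 47.1% of all probe sets) and 47 above. The upper quartile was exceeded on every array by 86 of them. Among all probe sets that did so, 53% lay below 0, with a median of -0.01. All 133 intervals stayed within a 2-fold difference.

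PLK4, the kinase that starts centriole duplication, had the smallest p of the 133. It gave 10.21, 10.31 and 10.25 with the control vector and 10.84, 10.86 and 10.98 with the miR-543 vector. The arrays of each group were close together (SD 0.050 and 0.076, n = 3), all miR-543 arrays were higher, and the log2 change was 0.64 (SE 0.13, interval 0.34 to 0.93, limma adjusted p = 0.0824). PLK4 passed with the trend and robust variance model (limma adjusted p = 0.017) and among the upper 50% of probe sets by mean (0.026), within a range of 0.017 to 0.309 over 11 alternatives. KIF15, a second motor that separates spindle poles, from the same list of 29 measured spindle, centrosome and midbody genes, gave 9.98, 9.98 and 9.86 against 9.59, 9.64 and 9.55. Its groups did not overlap, with a change of -0.35 (limma adjusted p = 0.395). The list had 20 genes below 0 and a median of -0.05.

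The CDK1 switch list held genes placed around the activity of CDK1, with kinases and phosphatases among them. CDC25B, a phosphatase that activates CDK1, averaged 9.86 ± 0.13 and 10.4 ± 0.18 (SD, n = 3), a change of 0.53 (limma adjusted p = 0.236) with no overlap. PKMYT1, a kinase that inhibits CDK1, had a change of 0.42 (limma adjusted p = 0.414) with overlapping groups. Of the 14 genes of that list 8 lay above 0, with a median of 0.05 and 0 called.

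Of 18 genes of the APC/C and its partners 9 lay above 0 and 9 below (median 0.02). The subunits CDC16 and ANAPC11 had changes of 0.48 and 0.52 (limma adjusted p = 0.297 and 0.365), and in both all miR-543 arrays lay above all control arrays. UBE2C, which works in the same reaction, had a change of -0.50, from a probe set below the median signal on every array.

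The list named for DREAM and MMB, the complexes that repress and then activate mitotic genes, also holds the 3 subunits of NF-Y, the factor that binds CCAAT boxes, and B9D2, which is known for a role in cilia. It had 13 of 16 genes below 0, a median of -0.14 and 0 called. Without NF-Y and B9D2, left out after their values were seen, 10 of 12 lay below 0 with a median of -0.13, and all 3 NF-Y subunits lay below 0. NFYC, of NF-Y, gave 11.85, 11.93 and 11.93 against 11.74, 11.68 and 11.14, a change of -0.38 (limma adjusted p = 0.481). B9D2 had a change of 0.45 (limma adjusted p = 0.407).

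Of 30 further kinetochore and centromere genes 20 lay below 0 (median -0.07). NSL1, of the complex that joins kinetochore to centromere, and ZWILCH, of the complex that brings dynein to kinetochores, each had a change of -0.43 with no overlap (limma adjusted p = 0.374 and 0.362). Of 17 condensin and cohesin genes 12 lay below 0 (median -0.08), with -0.43 for PDS5B, a cohesin regulator, and -0.29 for the cohesin subunit SMC3. Of 9 further checkpoint and chromosomal passenger genes 5 lay below 0 (median -0.05), with -0.38 for MAD1L1, the partner of MAD2, and 0.15 for MAD2L2, a relative of MAD2 that also acts in DNA repair.

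**Figure D4:**
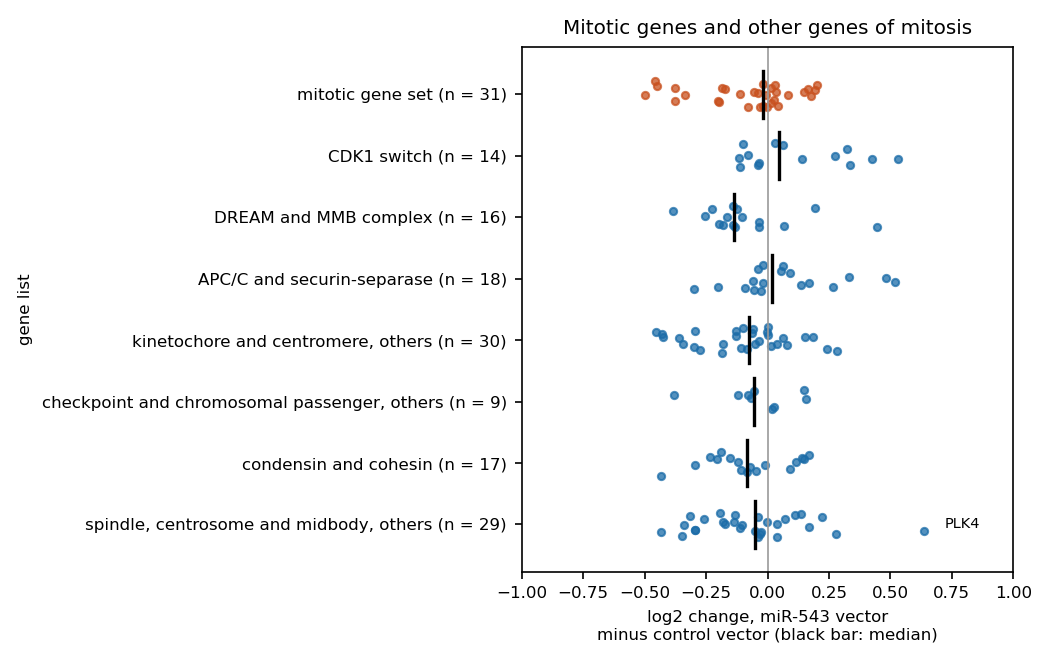
Log2 change, miR-543 vector minus control vector, of the 31 mitotic genes and of 133 other genes of mitosis in 7 lists, with a point for each gene and a bar at the median of each list. Medians lie between -0.14 and 0.05, and PLK4 at 0.64 is the highest point.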

How the data were processed

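The authors deposited log2 signals, 1 value for each probe set on each of 6 arrays of K562 RNA, rounded to 2 decimals. They had been made with Transcriptome Analysis Console 4.0 and RMA, per the submitters' processing notes. RMA subtracts a background, makes the arrays' distributions alike and combines a probe set's probes. Its variant and the genome build are not given in the sources used here, and no detection calls were used. Groups came from the sample titles, 3 arrays each, and the number of arrays limits the precision.

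Probe sets were named through the platform annotation, and all 31 symbols matched the RefSeq gene table of GRCh38.p14 unchanged. Levels of different probe sets are not comparable, so no gene was ranked against another by level. Differences between the vectors were fitted in limma 3.58.1 under R 4.3.3 (lmFit and eBayes, no trend, block or filter) on all 21448 probe sets, with two-sided p-values adjusted by Benjamini-Hochberg over all of them and called under 0.05. SE is the moderated standard error. The steps were run on simulated data with known changes, and the share of those changes found is not reported here. Replicate numbers were not used to pair the arrays in the reported fit. Deviations of same-numbered arrays from their group means correlated at 0.09, -0.05 and 0.02. Arrays with different numbers gave -0.09 to 0.07. Whether same-numbered arrays share a batch was not tested.

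All 31 genes are named, and from each of 7 pathway lists the 2 genes with the smallest unadjusted p. The mitotic genes, lists and alternatives were chosen with earlier results of these data known. The alternatives were a trend and robust variance model, a replicate block, 2 rescalings, a filter on low signals and leaving out each array.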

Additional observations from a re-analysis of the deposited data

How the results depend on the processing

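Of the 31 mitotic genes 0 were called in any of the 11 alternative fits, and 18 kept their sign in every fit that measured them. The number of probe sets called was 122, and it was 71 with the replicate block, 252 with the trend and robust variance model and 34 to 59 without 1 array. The replicate block changed no call among the mitotic or pathway genes. The count of pathway genes called was 1, PLK4, with the trend and robust variance model and among the upper 50% of probe sets by mean, and 0 otherwise, leave-one-out fits included. The median change of the mitotic genes was -0.02, and it ran from -0.075 to -0.013 without 1 array, the lowest without control replicate 3. After a further quantile normalization it was -0.0008, with 16 genes below 0, and the median of all probe sets was 0.007. The count below 0 lay between 16 and 21 over all alternatives.

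The other 13 genes changed sign at least once, all with changes of at most 0.06 in size in the reported fit. After a further quantile normalization CCNB2 was at 0.023, BUB1B at 0.010 and KIF23 at 0.028. Leaving out 1 array gave -0.13 to 0.075 for KIF23, -0.12 to 0.087 for CCNB2, -0.12 to 0.13 for BUB1B, -0.03 to 0.055 for CDC20, -0.11 to 0.31 for CENPA, -0.18 to 0.06 for NDC80, -0.077 to 0.032 for TOP2A, -0.04 to 0.12 for CCNA2, -0.075 to 0.12 for FOXM1, -0.05 to 0.065 for NEK2, -0.097 to 0.083 for CENPE, -0.21 to 0.23 for DLGAP5 and -0.11 to 0.0083 for PLK1. The cause was not tested.

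The filter on low signals removed UBE2C. Averaging several probe sets of a gene gave no other value because each gene had 1. Signal over background was not measured, which limits UBE2C most.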
